A study of Macaca mulatta with 4 samples.

Results

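The genes described here are the receptors and ligands of the tumour necrosis factor (TNF) superfamily together with the adaptors, kinases, subunits and inhibitors that connect them to the transcription factor NF-kB. They were chosen by gene symbol, with earlier results of these data known. The symbols begin with TNFRSF, TNFSF or NFKBI, or are TRAF1 to TRAF7, TNFAIP2, TNFAIP3, TNFAIP8 or 1 of 23 other pathway genes, and the rule uses no measured value. Of 71 such genes looked for, 55 matched a row of the table, which has 21314 rows in all, 14654 of them paired with a symbol. The 16 without a row of that name were FAS, TNFRSF4, TNFRSF10C, TNFRSF10D, TNFRSF13C, FASLG, TNFSF4, TNFSF13, TNFSF14, TNFSF18, TRADD, FADD, BIRC3, NFKBIZ, NFKBIL1 and TNFAIP8. Some may lie among the 6660 rows that carry no symbol, so nothing is said of their level.

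RNA was sequenced from RF/6A, an untreated rhesus macaque (Macaca mulatta) cell line that the labels describe as chorioretinal and that other work has taken as a model of endothelium. It was grown in serum-containing medium and its 4 libraries, titled static 1 to 4, form 1 group. No TNF-stimulated or other comparison group was analysed here, so every value is a resting level of 1 cell line. Nothing in the labels says whether the libraries came from separate cultures, and SDs describe the spread between these 4 libraries, which may be technical.

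Receptors of this superfamily bind trimeric ligands at the cell surface. Those with a death domain inside the cell can recruit adaptors that start cell death, and most receptors can also recruit TRAF proteins. In the canonical branch, ubiquitin ligases and the TAK1 kinase activate the IKK complex, IkB proteins are degraded and dimers such as RELA with NFKB1 enter the nucleus. In the non-canonical branch, used by the lymphotoxin beta receptor, CD40 and others, NFKB2 is processed and pairs with RELB. In endothelium TNF is known for inducing leukocyte adhesion molecules, one of the functions that the study assayed in these cells.

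Each library held between 20366946 and 20550610 estimated counts. Levels are counts-per-million (CPM) after scaling by the trimmed mean of M-values (TMM), and a gene was called expressed when each of the 4 libraries had at least 1 CPM. CPM values are not divided by transcript length, so they compare libraries for a gene and not genes with each other. A count of 0 in a library allows up to 3 counts, or between 0.135 and 0.185 CPM, for counting error alone. Library 2 stood apart from the others in composition, with 16.1% of its counts in ribosomal protein genes against 6.47% to 7.11% elsewhere, so values are given by library. Of the marker lists, 6 of 6 fibroblast and mesenchymal genes, 4 of 4 matched epithelial, 3 of 4 melanocyte and pigment epithelium, 2 of 5 myeloid, 1 of 6 endothelial (PECAM1) and 0 of 5 lymphocyte genes were expressed, so the defining markers of endothelium were mostly low. The summed level of the epithelial list was 3591 CPM in library 2 and 984 to 1121 CPM in the others. KRT18 made up 3487 CPM of that sum in library 2. KRT19 (96.7 CPM, against 23.4 to 34.9 CPM) and EPCAM (3.27 CPM, against 1.71 to 1.99 CPM) were also higher there. The defining epithelial cadherin gene CDH1 was lower there (4.56 CPM, against 7.01 to 8.45 CPM). The part of this list in the differences of library 2 described below was not tested.

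The matched genes of the signalling machinery were nearly all expressed and the matched ligands were mostly not. All 9 matched adaptors and ubiquitin ligases, all 6 kinase complex genes, 4 of 5 NF-kB subunits and 4 of 6 inhibitors and feedback genes were expressed, against 1 of 10 ligands. Among receptors, 4 of 5 with a death domain, both matched decoy receptors and 4 of 12 others were expressed. In all, 34 of 55 members (61.8%) were expressed, next to 52.9% of all rows and 64.2% of rows paired with a symbol, so the total is close to the background. Another 7 members lay on both sides of 1 CPM, 8 had counts but stayed below it in every library, and 6 had no count. Without library 2, and with the others scaled again, 38 members (69.1%) were expressed next to 56.4% of all rows.

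**Figure D1:**
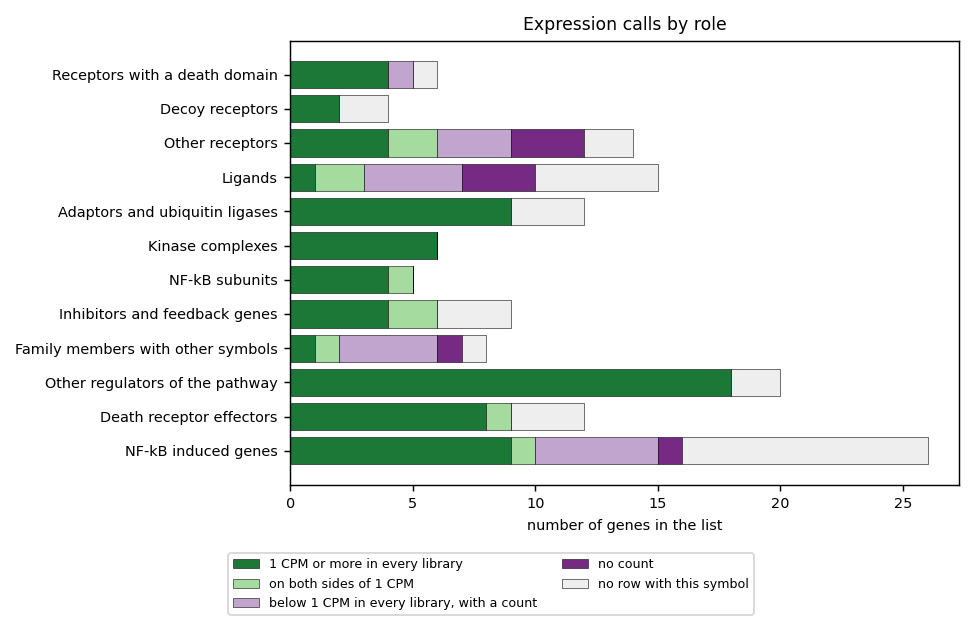
Bars count the genes of each role, 8 groups of members and 4 further lists from the pathway, by their level in the 4 RF/6A libraries: 1 CPM or more in every library, on both sides of 1 CPM, below 1 CPM with a count, no count, or no row with this symbol. Matched adaptors and kinase complex genes are expressed throughout, and 1 of 10 matched ligands is.

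TNFRSF1A (ENSMMUG00000000377), the death domain receptor through which soluble TNF mainly acts, measured 139, 219, 128 and 147 CPM in libraries 1 to 4. Its mean was 158 ± 41.4 CPM (SD, n = 4), and library 2 was the highest, at 1.58 times the median of the others with TMM and 1.16 times with plain CPM. TNFRSF1B (ENSMMUG00000021447), the second TNF receptor, which lacks a death domain and recruits TRAF2, measured 4.32, 2.59, 4.85 and 1.45 CPM. These rest on counts of 95, 42, 108 and 32, and library 4 was the lowest, so the spread did not come from library 2 alone. Set side by side, TNFRSF1A collected 3051, 3555, 2848 and 3252 counts, and the ratio of its counts to those of TNFRSF1B was 32.1, 84.6, 26.4 and 102. That ratio is not a ratio of molecules, and the libraries fell into a low pair (1 and 3) and a high pair (2 and 4).

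Both matched receptors for TNFSF10 (TRAIL) were expressed. TNFRSF10B measured 72.4, 60.9, 67 and 68.1 CPM in libraries 1 to 4. TNFRSF10A measured 3.87, 3.7, 3.68 and 4.34 CPM. Library 2 was the lowest for TNFRSF10B and lay within the others for TNFRSF10A, though below them with plain CPM. Both genes have close relatives, TNFRSF10C and TNFRSF10D, that matched no row, so the split of reads among them is uncertain. TNFRSF21, an orphan death receptor also called DR6, measured 24.7, 6.85, 19 and 19.5 CPM, with library 2 at 0.351 times the median of the others. TNFRSF25, the death receptor for TNFSF15, stayed below 1 CPM in every library, unlike the other matched death domain receptors, with counts of 8, 1, 0 and 0.

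Decoy receptors bind ligand without signalling. TNFRSF11B, which encodes the secreted protein osteoprotegerin, measured 303, 129, 297 and 281 CPM in libraries 1 to 4, from counts of 6664, 2087, 6608 and 6217, the largest of any member in libraries 1, 3 and 4 but not in library 2. Its level was 294 ± 11.3 CPM in libraries 1, 3 and 4 (SD, n = 3), and library 2 lay below them, at 0.434 times their median. TNFRSF6B, a soluble decoy for FASLG and TNFSF15, went the other way, at 1.36, 6.66, 1.44 and 2.17 CPM with library 2 at 4.63 times the median of the others (3.39 with plain CPM). In the human genome TNFRSF6B shares a locus with RTEL1, and reads from overlapping transcripts could be assigned to either.

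Among receptors without a death domain, 4 of 12 were expressed. LTBR, the lymphotoxin beta receptor, measured 84.6, 176, 95.6 and 99.99 CPM, highest in library 2. TNFRSF19, also called TROY, measured 97.3, 34.7, 85.5 and 80.05 CPM, lowest in library 2. TNFRSF12A, the receptor Fn14 for TNFSF12, measured 24.6, 50.6, 21.4 and 26.2 CPM and was highest in library 2. For these 3 genes libraries 1, 3 and 4 did not overlap library 2, which holds for 91.7% of all rows with an average of 1 CPM or more. TNFRSF1B was the fourth expressed gene. TNFRSF14, the herpesvirus entry mediator, straddled the threshold at 1.18, 2.41, 0.135 and 0.859 CPM, from counts of 26, 39, 3 and 19. CD40, a receptor of B cells, antigen-presenting cells and activated endothelium, also straddled it at 0.773, 1.23, 0.674 and 0.136 CPM, passing 1 CPM in library 2 only and, with plain CPM, in none.

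The remaining 6, known from lymphocytes and osteoclasts, were low or not detected. TNFRSF17, the receptor BCMA of plasma cells, measured 0.424 ± 0.139 CPM (SD, n = 4). TNFRSF8, the receptor CD30 of activated lymphocytes, measured 0.275 ± 0.192 CPM, and TNFRSF11A, the receptor RANK of osteoclast precursors, 0.393 ± 0.279 CPM with 0.802 CPM in library 2. TNFRSF9 and TNFRSF18, receptors of activated T cells, and TNFRSF13B, a receptor of B cells, had no count in any library. Of the 5 matched lymphocyte markers, none was expressed, CD3E had no count, and their summed level was 0.546, 2.65, 0.943 and 0.769 CPM in libraries 1 to 4. That sum and CD40 were both highest in library 2, and the part of such cells in the CD40 value was not tested. In bulk RNA, few cells with much of a transcript and many cells with little of it cannot be told apart.

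**Figure D2:**
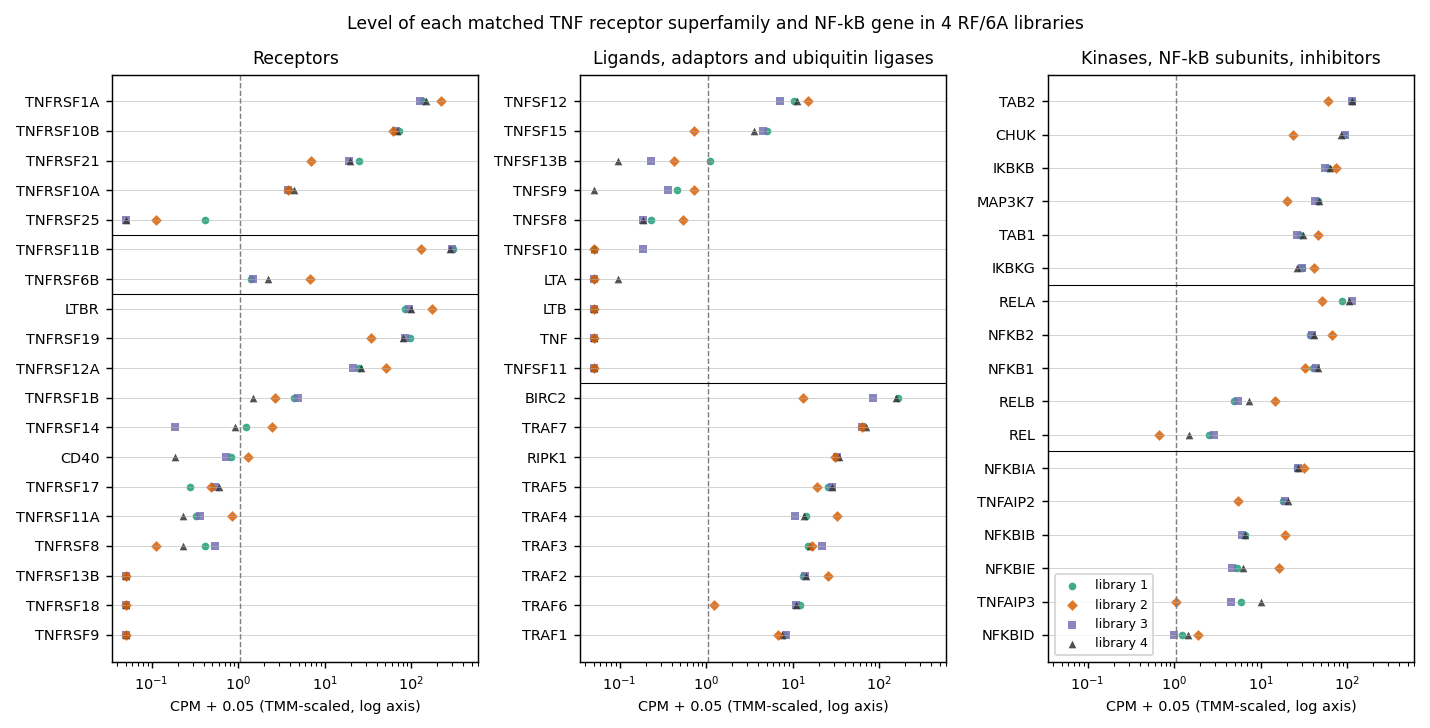
Each point is the level of a member in 1 of the 4 RF/6A libraries, in TMM-scaled CPM + 0.05 on a log axis, with roles separated by black lines and a dashed line at 1 CPM. Kinases, adaptors and NF-kB subunits lie right of the line apart from REL in library 2, while TNF, LTB and TNFSF11 sit at 0 in every library.

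TNF itself (ENSMMUG00000045654) had no count in any of the 4 libraries. LTB and TNFSF11 (RANKL, the ligand that osteoprotegerin neutralises) likewise had none, LTA had 1 count in library 4 and TNFSF10 had 3 counts in library 3. In RefSeq's rhesus assembly LTB, TNF and LTA are neighbouring genes, and the 3 together collected 1 count. TNFSF12, which encodes the Fn14 ligand TWEAK, was the only ligand expressed in every library, at 10.2, 15.1, 7.19 and 11.1 CPM. Its neighbour TNFSF13 matched no row, and human transcripts that join these genes are known, so the assignment of its reads is uncertain. Its receptor TNFRSF12A, described above, was also expressed in every library. Both were highest in library 2, as were 43.8% of all rows with a mean of at least 1 CPM. With plain CPM, library 2 was at 1.08 (TNFSF12) and 1.51 (TNFRSF12A) times the median of the others.

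TNFSF15, a ligand (TL1A) known from endothelial cells, measured 4.96, 0.679, 4.49 and 3.48 CPM and was under the threshold in library 2 alone. With that library left out it was expressed, and the ligands then numbered 2 of 10. Its signalling receptor TNFRSF25 was below 1 CPM everywhere and its decoy TNFRSF6B was expressed. TNFSF13B, the B cell survival factor BAFF, measured 1.05, 0.37, 0.18 and 0.0452 CPM and passed the threshold in library 1 only, with counts of 23, 6, 4 and 1. TNFSF9 and TNFSF8, ligands known from activated leukocytes, had counts of 9, 11, 7 and 0 (TNFSF9) and of 4, 8, 3 and 3 (TNFSF8). Of the 8 members with counts that stayed below 1 CPM in every library, all had an upper exact 95% Poisson limit over the 4 libraries below 1 CPM, the highest being 0.59 CPM for TNFRSF17. These genes were picked for low values in every library, so a limit on their pooled counts adds little. It does not bound the level in any single library.

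Of 7 matched superfamily members whose symbols follow another scheme, 1 was expressed (14.3%), next to 52.9% of all rows and 64.2% of rows paired with a symbol. It was the ectodysplasin A2 receptor EDA2R, at 6.1, 2.28, 6.74 and 4.39 CPM. RELT straddled the threshold at 1.14, 0.987, 1.66 and 1.76 CPM. CD40LG, the ligand of CD40, measured 0.49 ± 0.223 CPM (SD, n = 4), NGFR, the p75 neurotrophin receptor, 0.269 ± 0.081 CPM, CD70 had counts of 3, 1, 1 and 0, and EDA of 0, 0, 3 and 2. EDAR had no count. Without library 2, RELT passed as well and 2 of 7 were expressed.

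The 9 matched adaptors and ubiquitin ligases that receptors recruit were all expressed, while TRADD, FADD and BIRC3 matched no row. RIPK1, the kinase of the TNF receptor complex, measured 31.9, 31, 32.8 and 34.2 CPM in libraries 1 to 4. TRAF7, a ligase linked to the kinase MAP3K3, measured 64.6, 63.6, 63.3 and 71 CPM, highest in library 4. TRAF1, a TRAF without a RING domain, measured 7.92, 6.79, 8.22 and 7.55 CPM. TRAF3, a brake on the non-canonical branch, measured 15, 16.5, 21.5 and 15.7 CPM, highest in library 3, and TRAF5 25.9, 19.3, 28.6 and 28.4 CPM. Library 2 lay within the others for TRAF3 and TRAF7 (below them with plain CPM) and below them for RIPK1, TRAF1 and TRAF5. Coefficients of variation among libraries 1, 3 and 4 were 3.44% for RIPK1, 4.24% for TRAF1, 5.36% for TRAF5, 6.21% for TRAF7 and 20.5% for TRAF3, next to a median of 8.85% over all rows that average 1 CPM or more.

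For TRAF2, TRAF4 and TRAF6, library 2 lay apart from the other libraries with TMM, by the gap test described below. With plain CPM it lay apart for TRAF6 only, and was at 1.33 (TRAF2) and 1.78 (TRAF4) times the median of the others. Of all rows with a mean of at least 1 CPM, library 2 lay apart with TMM as the highest in 21.8% and as the lowest in 11.2%. TRAF2, the ubiquitin ligase recruited to both TNF receptors, measured 13.3, 25.4, 14 and 14.2 CPM. TRAF4, first isolated from breast carcinoma, measured 14.3, 32.4, 10.7 and 13.5 CPM, and both were highest in library 2. TRAF6, which relays signals from CD40, RANK and interleukin 1 receptors, measured 12.1, 1.17, 11 and 10.9 CPM, and its 19 counts in library 2 compare with 241 to 265 in the others. It was therefore below 1 CPM in library 2 with plain CPM. The ratio of TRAF2 to TRAF6 counts, which needs no scaling, was 1.1, 21.6, 1.27 and 1.31 in libraries 1 to 4. The ratio of TRAF2 to TRAF1 counts was 1.68, 3.74, 1.7 and 1.89, again with library 2 above the others.

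BIRC2, which encodes the ubiquitin ligase cIAP1, had the widest fold range among adaptors, at 166, 13, 85 and 158 CPM. Library 2 was at 0.0823 times the median of the others. Libraries 1, 3 and 4 also differed, with 1892 counts in library 3 next to 3651 and 3497, and a coefficient of variation of 32.8% without library 2. The neighbouring paralog BIRC3 matched no row, so reads shared between the copies are uncertain and no side-by-side value can be given.

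All 6 genes of the TAK1 and IKK complexes were expressed. Library 2 lay outside the range of the others for each, as it did for 91.7% of all rows that average 1 CPM or more. TAB2, an adaptor that binds ubiquitin chains, measured 115, 59.7, 113 and 113 CPM, and libraries 1, 3 and 4 had an SD of 1.11 CPM (n = 3). CHUK, the catalytic subunit IKK alpha, measured 90.8, 23.3, 94.3 and 84.8 CPM. MAP3K7, the kinase TAK1 itself, measured 45.7, 20.2, 42.2 and 47.8 CPM. Library 2 was the lowest for all 3, with 0.526 (TAB2), 0.257 (CHUK) and 0.442 (MAP3K7) times the median of the others.

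The other kinase genes were highest in library 2 with TMM. IKBKB, the catalytic subunit IKK beta of the canonical branch, measured 59.4, 73.8, 55.3 and 62.8 CPM. IKBKG, the regulatory subunit NEMO, measured 30.1, 41.8, 29.7 and 26.1 CPM, and TAB1, a TAK1 activator, 28.6, 45.6, 26.6 and 30.7 CPM. For IKBKB the order turned with plain CPM, where library 2 was at 0.914 times the median of the others. The ratio of IKBKB to CHUK counts does not depend on scaling and was 0.654, 3.17, 0.587 and 0.741 in libraries 1 to 4. It averaged 0.661 ± 0.0775 (SD, n = 3) in libraries 1, 3 and 4, and library 2 lay outside that spread. TAB1 to TAB2 counts were also highest in library 2, at 0.248, 0.764, 0.235 and 0.271.

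Of the NF-kB subunits, RELA (ENSMMUG00000007418), the activating subunit p65, measured 88.1, 51.6, 114 and 104 CPM. NFKB1, the precursor p105 of p50, measured 40.7, 32.8, 44.2 and 46.4 CPM. Both were lowest in library 2. REL, a subunit best known from lymphocytes, measured 2.46, 0.617, 2.83 and 1.45 CPM and was below the threshold in library 2 alone, with 10 counts there. Subunits of the non-canonical branch were highest in library 2. NFKB2, the precursor p100 of p52, measured 37.5, 66.3, 38.7 and 41.7 CPM and RELB 4.82, 14.7, 5.48 and 7.33 CPM. Of all rows with a mean of at least 1 CPM, library 2 was highest in 43.8% and lowest in 48%. Other genes of the branches did not all divide this way. With TMM, LTBR was highest in library 2, but so was IKBKB of the canonical branch. For TRAF3 and the kinase gene MAP3K14 of the non-canonical branch, library 2 lay within the others.

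The orders of the NF-kB subunits held with plain CPM. Count ratios need no scaling but use the same counts, so they restate these orders and are not separate evidence. NFKB1 to NFKB2 counts were 1.08, 0.495, 1.14 and 1.11 in libraries 1 to 4, with a spread of 0.0283 (SD, n = 3) among libraries 1, 3 and 4. RELA to RELB counts were 18.3, 3.51, 20.8 and 14.2, lowest in library 2. RELA to REL counts were 35.9, 83.6, 40.2 and 71.9, and there library 2 was near library 4 and above libraries 1 and 3. LTBR, a receptor that feeds the non-canonical branch, kept a ratio to TNFRSF1A counts of 0.61, 0.801, 0.748 and 0.68 in libraries 1 to 4.

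**Figure D3:**
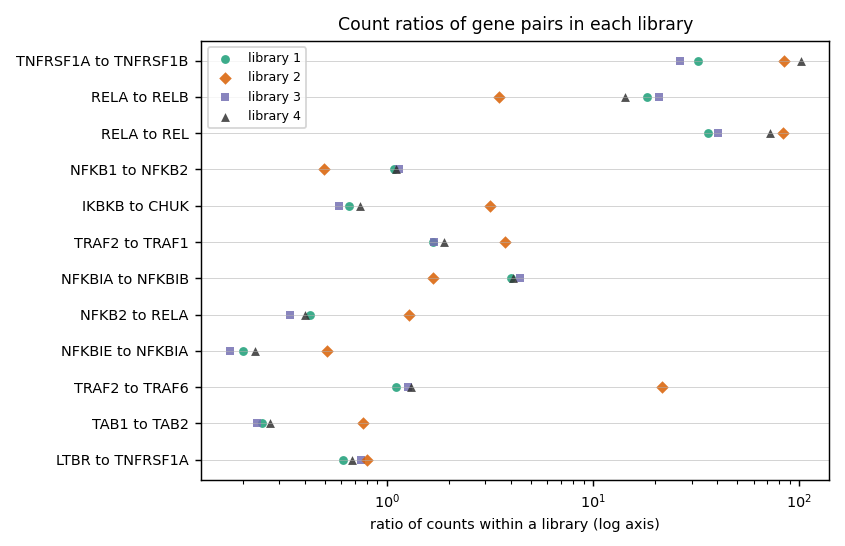
Points give, for each pair of members, the counts of the first gene divided by those of the second in each of the 4 RF/6A libraries, on a log axis. Library 2 lies apart for the IKK, TAB, NFKB1 to NFKB2 and TRAF2 to TRAF6 ratios, while TNFRSF1A to TNFRSF1B separates libraries 2 and 4 from 1 and 3.

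The IkB proteins hold NF-kB in the cytoplasm, and the gene of IkB alpha is itself an NF-kB target. NFKBIA (ENSMMUG00000020374), the gene of IkB alpha, measured 26.3, 31.6, 27 and 27.1 CPM, with 26.8 ± 0.468 CPM in libraries 1, 3 and 4 (SD, n = 3). Library 2 was 1.17 times their median with TMM and 0.86 times with plain CPM, so its side depends on the scaling. NFKBIB, the gene of IkB beta, measured 6.55, 18.9, 6.07 and 6.6 CPM. NFKBIE, that of IkB epsilon, measured 5.28, 16.2, 4.67 and 6.2 CPM. Both were highest in library 2 under either scaling, at 2.13 and 2.26 times the median of the others with plain CPM. NFKBIA to NFKBIB counts were 4.01, 1.67, 4.44 and 4.11. NFKBIE to NFKBIA counts were 0.201, 0.513, 0.173 and 0.228. NFKBID, a nuclear IkB relative, lay near the threshold at 1.18, 1.85, 0.943 and 1.4 CPM, and only library 3 was under it.

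TNFAIP3 encodes A20, a ubiquitin-editing enzyme that NF-kB induces and that shuts the pathway down. It measured 5.87, 0.987, 4.54 and 10.1 CPM and missed the threshold in library 2 alone, with 16 counts there next to 101 to 223. Its coefficient of variation without library 2 was 42.4%, so it also varied among the other libraries, library 4 being the highest. TNFAIP2, a TNF-induced gene of the exocyst-related family, measured 18, 5.49, 18.9 and 20.5 CPM, lowest in library 2. Without library 2 all 6 matched inhibitors and feedback genes were expressed.

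Of 39 members with a mean of at least 1 CPM, 1 library stood apart in 15 (38.5%) by Dixon's test, which compares the gap between an extreme library and its neighbour with the whole range, next to 33.8% of all such rows. In 14 of these it was library 2, which was the lowest in 5 (12.8%, next to 11.2% of all rows) and the highest in 9 (23.1%, next to 21.8%). With plain CPM the test found 8 members, with library 2 the lowest in 6 and the highest in 1, NFKBIB, so most of the high calls depend on the scaling. Library 2 lay above all others in 17 members (43.6%, next to 43.8%) and below all others in 18 (46.2%, next to 48%). All 5 shares are close to the background. The members' median log2 ratio of library 2 to the median of the others was -0.06 with TMM and -0.46 with plain CPM, next to -0.07 and -0.49 over all such rows. Only TRAF3, IKBKB and NFKBIA of the 39 changed side between these scalings.

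**Figure D4:**
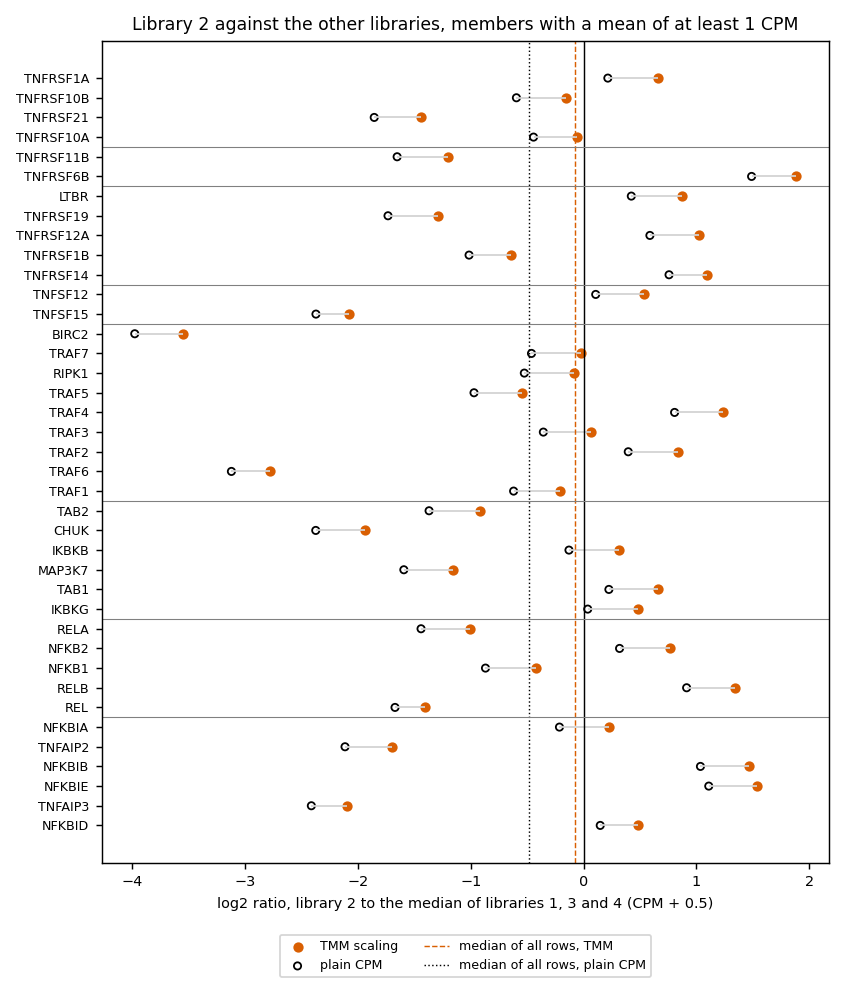
Points give the log2 ratio of library 2 to the median of libraries 1, 3 and 4, on CPM + 0.5, for the 39 members that average 1 CPM or more, with TMM (filled) and with plain CPM (open), and vertical lines give the medians over all rows. BIRC2 and TRAF6 lie lowest and TNFRSF6B, NFKBIE and NFKBIB highest under both scalings.

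Of 20 other regulators of the pathway looked for, 18 matched a row and all 18 were expressed. This compares with 52.9% of all rows and 64.2% of rows paired with a symbol. TAX1BP1 and TNIP1, partners of A20, measured 204, 113, 152 and 189.7 CPM (TAX1BP1) and 71.9, 171, 62.2 and 72.6 CPM (TNIP1). RBCK1, a subunit of the linear ubiquitin ligase, measured 64.3, 138, 67.3 and 48.1 CPM. TNIP1 and RBCK1 were highest in library 2 and TAX1BP1 lowest there. MAP3K14, the kinase NIK that starts the non-canonical branch, measured 11, 17.2, 17.6 and 14.6 CPM, and CYLD, a deubiquitinase that restrains NF-kB, 15.6, 8.76, 17.6 and 15.3 CPM.

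Among effectors of death receptors, 8 of 9 matched genes were expressed (88.9%), next to 52.9% of all rows and 64.2% of rows paired with a symbol. DIABLO, which antagonises inhibitor of apoptosis proteins, measured 57.4, 106, 59.3 and 72.6 CPM in libraries 1 to 4. The survival gene BCL2L1 measured 68.9, 52.4, 64.8 and 78.6 CPM and the pore-forming BAX 22.3, 67.9, 24.8 and 26 CPM, lowest and highest in library 2. CASP8, the initiator caspase of death receptors, measured 31.2, 16.8, 33.7 and 25 CPM and its inhibitor CFLAR 8.6, 10.7, 9.39 and 8.68 CPM.

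Genes that NF-kB is known to induce were expressed in 9 of 16 matched cases (56.2%), next to 52.9% of all rows and 64.2% of rows paired with a symbol. GADD45B, a stress-response gene, measured 72.2, 214, 80.1 and 90.4 CPM and was highest in library 2. The chemokine gene CCL2 measured 48.6, 73, 39.5 and 41.8 CPM and the transcription factor gene IRF1 50.1, 40.1, 52.2 and 47.3 CPM. LIF and IL6, cytokine genes, measured 30.6 ± 2.29 and 15.1 ± 1.35 CPM (SD, n = 4). At the other end BCL2A1 and CXCL10 stayed below 1 CPM at 0.595 ± 0.0412 and 0.344 ± 0.155 CPM, CXCL1 and CCL20 had 7 and 2 counts in all, and CSF2, the gene of a myeloid growth factor, had none. These are resting levels, and no induction was measured.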

How the data were processed

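The authors deposited estimated counts per Ensembl rhesus gene for 4 libraries, made before deposit from reads by steps for which Salmon and DESeq2 are named, per the submitters' processing notes, and given as whole numbers. Tool versions, genome build, annotation and strandedness were not given in the sources used here. Deposited counts were scaled with TMM in edgeR 4.0.16 (R 4.3.3) and expressed as CPM. Symbols came from a table of Ensembl identifiers.

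With 1 group there was no contrast and no test between conditions, only counts at 1 CPM, Dixon's gap test and exact Poisson limits, which cover counting error only. No transcript lengths were used, so the planned per-length differences within gene pairs were not computed and count ratios are given. Members, lists and pairs were chosen with earlier results of these data known. Of the pairs, TRAF2 to TRAF6, TAB1 to TAB2, NFKBIE to NFKBIA and LTBR to TNFRSF1A were chosen after their values were seen, and so were EDA2R to EDA, MAP3K14, CYLD, CASP8, CFLAR and the lower NF-kB induced genes as names. The rule named the 3 highest members by mean CPM in each role, TNFRSF1B, pair members, members on both sides of 1 CPM, those in which 1 library stood apart, and the 3 highest of each other list. Of the death receptor effectors, 1 gene is not reported here.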

Additional observations from a re-analysis of the deposited data

Results flagged for a closer look

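Dixon's gap test was run on 61 values, the 49 members with a count and the 3 highest genes of each of 4 further lists, and found 1 library apart from the other 3 in 22. About 1 in 20 would be found by chance, but the same test finds a library apart in 33.8% of all rows with a mean of at least 1 CPM. Among the 39 members at that level it found 15, a share near that background. The 61 values also include members below that level, to which this background does not apply. The test is certain to flag a gene counted in only 1 library, as TNFSF10 and LTA were. In 18 of the 22 the library was library 2 (5 low, 13 high), and flags that come from the same library are not independent.

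Library 2 was low for TNFRSF11B (128.7 CPM), TAB2 (59.7 CPM), CHUK (23.3 CPM), TNFAIP2 (5.49 CPM) and TRAF6 (1.17 CPM). It was high for GADD45B (214 CPM), LTBR (176 CPM), TNIP1 (171 CPM), BAX (67.9 CPM), NFKB2 (66.3 CPM), TNFRSF12A (50.6 CPM), TRAF4 (32.4 CPM), NFKBIA (31.6 CPM), TRAF2 (25.4 CPM), NFKBIB (18.9 CPM), NFKBIE (16.2 CPM), TNFRSF6B (6.66 CPM) and TNFSF8 (0.493 CPM, from 8 counts). Of the members among these, only NFKBIB was still apart on the high side with plain CPM.

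Library 4 was high for TRAF7 at 71.0 CPM, next to 63.3 to 64.6 CPM in the others. The remaining flags rest on few counts. TNFRSF25 was at 0.364 CPM in library 1 (8 counts), TNFSF10 at 0.135 CPM in library 3 (3 counts) and LTA at 0.0452 CPM in library 4 (1 count).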

How the results depend on the processing

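The number of expressed members, 34, stayed between 31 and 38 under the alternatives run: 34 with plain CPM and with DESeq2 size factors, 38 at 0.5 CPM, 31 at 2 CPM, 38 with filterByExpr, and 34 to 38 when each library was left out in turn, with 38 without library 2 (REL, TNFAIP3, NFKBID and TNFSF15 added). Plain CPM dropped TRAF6 and added NFKBID. The number of members with 1 library apart, 15, was 15 with DESeq2 size factors, 19 of 49 with no minimum level and 11 of 26 at a mean of 10 CPM, and 8 with plain CPM. Plain CPM leaves library 2 unscaled, and the TMM factor of that library was 0.793 against 1.08 to 1.09 in the others. Mean CPM of the 49 members with a count moved by less than 1 SD under both other scalings and without libraries 1, 3 or 4, and by more for 6 without library 2. On a fixed scaling, leaving out 1 of 4 libraries cannot move a mean by 1 SD of those libraries. Staying within 1 SD when a library is left out is therefore no evidence of stability. The remaining libraries were scaled again each time, and these 6 moves came with that scaling. For RIPK1, 1 of the 6, the mean was 32.5 CPM over all libraries. Without library 2 it was 33.0 CPM on the same scaling and 35.6 CPM when scaled again. Expressed ligands numbered 2 without library 2, as did endothelial markers. No paired analysis was possible because there is 1 group. Per-length differences within pairs were not run. Members below about 1 CPM rest on some 20 counts or fewer per library, and their order is not resolved at this depth.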

Other observations

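Some regulators of the pathway outside the rule for names, chosen after their values were seen, differed between libraries. USP7, a deubiquitinase of NF-kB and p53 regulators, had 35 counts in library 2 and 1748 to 1877 in the others. IKBKE, an IKK-related kinase, measured 17.5, 9.62, 6.96 and 5.97 CPM in libraries 1 to 4, with library 1 the highest. SHARPIN, a subunit of the linear ubiquitin ligase, measured 14.3, 45.3, 13.3 and 18.9 CPM, highest in library 2, and TAB3, a relative of TAB2, 22, 3.58, 21.6 and 19.99 CPM, lowest there as TAB2 was.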
